A study of Prunus avium with 21 samples.

Results

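Small thiol proteins of the glutaredoxin and thioredoxin families are described here through 3 of the 112043 transcripts assembled from sweet cherry flower buds. The transcripts, which the authors named by sequence similarity to proteins of *Prunus mume* or *Arabidopsis*, are TR23850|c0_g1_i1, a glutaredoxin (*GRX*), TR31490|c0_g1_i1, the monothiol glutaredoxin-S2 (*GRXS2* here), and TR2435|c0_g1_i1, the thioredoxin H2 (*TRXH2* here). They were chosen by their measured FPKM, which stood higher in hydrogen cyanamide-treated than in control buds, so the differences between those groups are given as a description, without a p-value. All 3 passed the filter on low values (a mean of at least 0.5 FPKM) in every comparison.

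The buds came from 3 neighbouring trees of the cultivar ‘Burlat’ (*Prunus avium*), numbered 4, 5 and 6, whose branches were cut before the chilling requirement was met. Hydrogen cyanamide-treated branches were sprayed with 2% Dormex, a commercial hydrogen cyanamide solution that breaks dormancy, and control branches with water, and both were sampled at 1, 3, and 6 dat (days after treatment) from a warm chamber with constant light. Untreated buds were sampled at day 0, in the evening, while all later samples were taken in the morning, so that the time of day, cutting and warming cannot be told apart in comparisons with day 0. Each of these 7 groups held 3 libraries, 1 for each tree, and each library pooled the flower buds of a whole branch, in which buds of several stages could be mixed.

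Glutaredoxins reduce disulfides, or free protein thiols from bound glutathione, with electrons from glutathione, which glutathione reductase then restores with NADPH. Monothiol glutaredoxins lack one cysteine of the usual active site pair, and in *Arabidopsis* glutaredoxin-S2 belongs to a plant-specific class whose members act with TGA transcription factors, some of them in flower development. Thioredoxins of the h type reduce disulfides without glutathione, through an NADPH-dependent thioredoxin reductase, and in cereal seeds they are known for the reduction of storage proteins at germination. Hydrogen cyanamide is known from grapevine buds to lower catalase activity and raise hydrogen peroxide.

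Each of the 21 libraries correlated most closely, across transcripts, with a library of its own group, and r within groups ran from 0.883 to 0.909. Levels are given as FPKM (fragments per kilobase of transcript, scaled to the fragments mapped), which summed to 671152 to 760090 per library. The number of reads behind a value is not in the table. Depth relative to the treated library of tree 4 at 1 dat was estimated from ratios of low values of rare transcripts, and ran from 0.979 to 1.33. At 6 dat this estimate was 1.19 to 1.31 in control and 0.979 to 1.14 in treated libraries, and at 1 and 3 dat the ranges overlapped. Among flower organ markers, none of 7 transcripts was at 0 in all 3 libraries of any group, but their summed level was low in untreated buds, at 1.43 to 4.397 FPKM. In bulk buds a smaller share of a cell type and less RNA per cell cannot be told apart.

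*GRX* was among the most abundant transcripts of treated buds one day after the spray, and its treated mean at 6 dat was 0.271 times that at 1 dat. At 1 dat its level in trees 4, 5 and 6 was 718, 749 and 866 FPKM in treated buds, against 130, 105 and 130 FPKM in control buds. The groups lay far apart, and *GRX* ranked 33rd to 50th of all transcripts in the treated libraries and 647th to 836th in the control libraries. The mean was 778 ± 77.8 FPKM in treated buds, against 122 ± 14.7 FPKM in control buds (SD, n = 3 each), a 6.39-fold difference, and the log2 FC on the log2(FPKM + 0.5) scale was 2.67 (SE 0.10).

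At 3 dat the treated trees differed widely among themselves. *GRX* stood at 282, 503 and 190 FPKM in treated buds of trees 4, 5 and 6, against 94.4, 95.3 and 90.7 FPKM in control buds. Tree 5 was well above the other treated trees, and tree 6 was lowest, yet the groups did not overlap. The coefficient of variation was 49.4% in treated and 2.63% in control buds. The log2 FC was 1.68 (SE 0.30), and it was 1.304 without the treated library of tree 5 and 2.00 without that of tree 6.

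By 6 dat the treated level of *GRX* overlapped with that of untreated buds. It was 233, 190 and 208 FPKM in treated buds of trees 4, 5 and 6, against 110, 107 and 109 FPKM in control buds. The control libraries were nearly equal to each other, all below the treated ones. The log2 FC was 0.94 (SE 0.10), a 1.94-fold difference of the means. In each of the 3 trees the log2 difference between treated and control buds was smaller at 6 than at 1 dat, by 1.73 ± 0.32 on average (SD, n = 3).

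**Figure D1:**
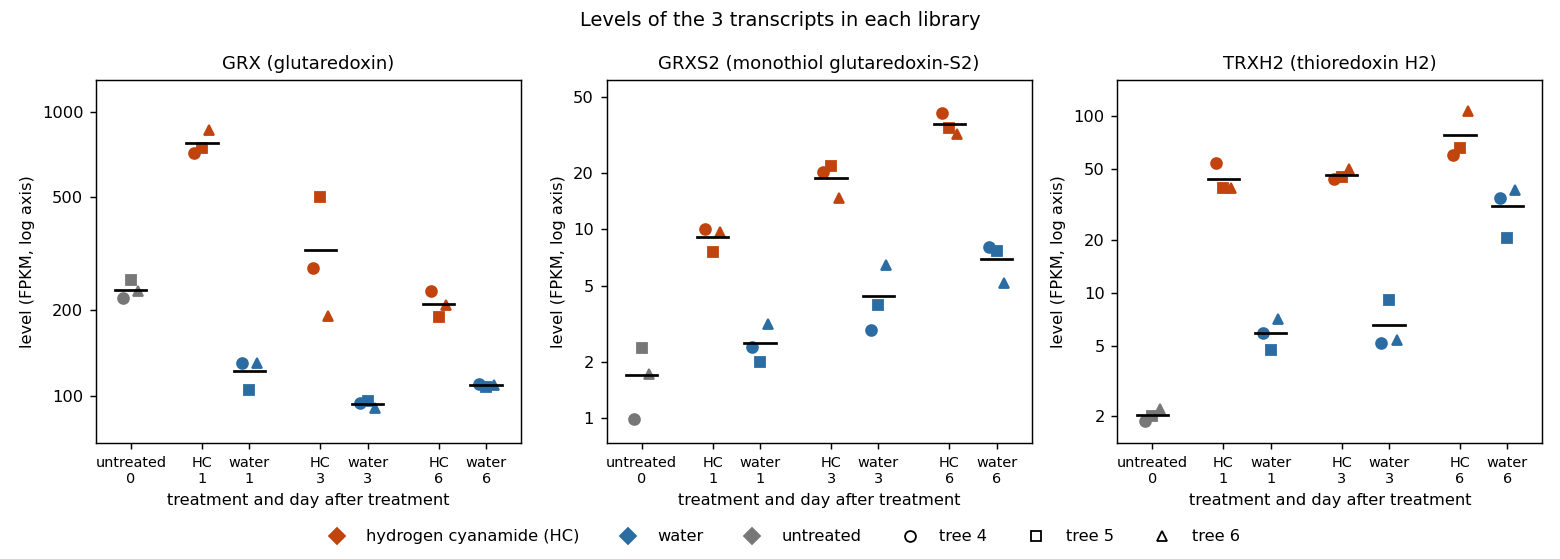
Level of each transcript (FPKM, log axis) in every library, with untreated buds at day 0 on the left and hydrogen cyanamide-treated (HC) buds left of water-treated buds at each day. Symbols are trees 4, 5 and 6 and black lines are means of 3 libraries. GRX was highest in treated buds at 1 dat (718 to 866 FPKM), GRXS2 and TRXH2 in treated buds at 6 dat.

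Against the untreated buds, *GRX* moved in opposite directions after the treatments. Untreated buds of trees 4, 5 and 6 held 220, 256 and 233 FPKM. The treated level at 1 dat was 3.29 times that mean, with all treated libraries above all untreated ones, whereas at 3 and 6 dat treated and untreated buds overlapped. In control buds the level was below day 0 in 3 of 3 trees at 1, 3 and 6 dat.

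For controls against day 0 a test could be run, in limma over the 12 untreated and control libraries, although the control libraries also entered the contrast by which the transcripts were chosen. That choice favours low values in control buds, and so lower values against day 0, the direction of the *GRX* results below. How far it moved them was not tested. Calls required a log2 FC of 1 or more in size together with a Benjamini-Hochberg adjusted p no higher than 0.05. *GRX* fell at 3 dat, to 0.396 times the untreated mean, with a log2 FC of -1.33 (SE 0.09, adjusted p = 9.63e-06 in limma). At 6 dat it was also called lower, with a log2 FC of -1.11 (adjusted p = 7.45e-06 in limma). At 1 dat the log2 FC of -0.96 (adjusted p = 9.78e-05 in limma) stopped short of the fold threshold, and it passed it without control tree 4 (-1.01), without control tree 6 (-1.01) or without untreated tree 4 (-1.01). Rescaling the libraries by median ratios took it to -1.17. Of all transcripts tested, 2.08%, 2.02% and 4.56% were called lower than at day 0 at 1, 3 and 6 dat, and 6.9%, 8.47% and 16.4% were called in either direction.

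The scale matters for these comparisons with day 0. The median log2 FC of all transcripts was 0.15, 0.20 and 0.17 at 1, 3 and 6 dat, and rescaling brought it to -0.01 each time. Relative to that median *GRX* stood at -1.11, -1.54 and -1.28 at 1, 3 and 6 dat. The share of calls that were higher also changed with rescaling, to 50.1%, 53.9% and 58.4%, from 69.8%, 76.1% and 72.3% with FPKM as deposited.

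*GRXS2* was a rare transcript in untreated buds, and its treated level was higher at each later day, without overlap between days. Its level in trees 4, 5 and 6 at 1 dat was 10.0045, 7.56 and 9.67 FPKM in treated buds, against 2.38, 1.98 and 3.15 FPKM in control buds. Even the lowest treated tree was above every control tree, and the log2 FC was 1.68 (SE 0.22). Over trees 5 and 6 alone, since the study used 2 trees at this day that it does not name, the log2 FC was 1.59, beside 2.78 for *GRX* and 2.65 for *TRXH2*.

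At 3 dat *GRXS2* reached 20.03, 21.7 and 14.6 FPKM in treated buds of trees 4, 5 and 6, against 2.95, 3.97 and 6.48 FPKM in control buds. Tree 6 was lowest among the treated and highest among the control trees, so that its difference was the smallest of the 3. The log2 FC was 2.00 (SE 0.29). At 6 dat the levels were 41.3, 34.4 and 32.05 FPKM in treated buds, against 8.06, 7.66 and 5.19 FPKM in control buds. Treated trees were now 5.15 times the control mean, with a log2 FC of 2.30 (SE 0.21), and did not overlap with control trees.

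Untreated buds held 0.988, 2.36 and 1.73 FPKM of *GRXS2* in trees 4, 5 and 6. The treated means were 5.37, 11.1 and 21.2 times the untreated mean at 1, 3 and 6 dat. The treated buds at 1 dat (7.56 to 10.0045 FPKM) overlapped with the control buds at 6 dat (5.19 to 8.06 FPKM).

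Control buds also gained *GRXS2*, with a call held in every alternative at 6 dat. At 1 dat the control mean was 2.50 ± 0.595 FPKM, against 1.69 ± 0.686 FPKM in untreated buds (SD, n = 3 each), which overlapped, and the log2 FC of 0.49 (SE 0.33) did not pass the test (adjusted p = 0.389 in limma). At 6 dat it was called higher than at day 0, at 4.12 times the untreated mean (log2 FC 1.80, adjusted p = 0.00207 in limma). The call at 3 dat (log2 FC 1.17, adjusted p = 0.0354 in limma) was lost once the tree was a block (adjusted p = 0.0535), with rescaling (log2 FC 0.91, adjusted p = 0.0750), without control tree 5 (adjusted p = 0.0752) or tree 6 (0.135), and without untreated tree 4 (0.119) or tree 6 (0.0769). Relative to the median of all transcripts, its log2 FC was 0.34, 0.96 and 1.63 at 1, 3 and 6 dat.

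From 1 to 6 dat *GRXS2* rose in the controls by a log2 FC of 1.31 (SE 0.33, adjusted p = 0.0248 in limma), higher in 3 of 3 trees. That call was lost without control tree 4 or 5 of 1 dat (adjusted p = 0.0726 and 0.0912) and without control tree 4 or 5 of 6 dat (0.0914 and 0.0774). The control libraries of both days had also entered the choice of the transcripts, and low values at 1 dat would favour a rise. How far the choice moved this result was not tested. Higher calls made up 4.64% of the transcripts tested between these days, and 4.82%, 6.44% and 11.9% against day 0 at 1, 3 and 6 dat.

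*TRXH2* was scarce in untreated buds and, at every day sampled, well expressed in treated ones. At 1 dat it stood at 54.4, 39.2 and 39.3 FPKM in treated buds of trees 4, 5 and 6, against 5.92, 4.78 and 7.08 FPKM in control buds. The treated mean was 7.47 times the control mean, the widest ratio of the 3 transcripts at that day, and the log2 FC was 2.80 (SE 0.19).

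At 3 dat the treated level of *TRXH2* was nearly the same as before, at 44.1, 45.1 and 50.6 FPKM in trees 4, 5 and 6, against 5.23, 9.12 and 5.40 FPKM in control buds. The treated libraries differed little, with a coefficient of variation of 7.49%, and unlike *GRX* did not set tree 5 apart. The log2 FC was 2.77 (SE 0.22). At 6 dat treated buds held 60.0, 66.4 and 107 FPKM, against 34.6, 20.5 and 38.0 FPKM in control buds. The gap had narrowed to a log2 FC of 1.32 (SE 0.29), while the groups still did not overlap.

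Control buds gained *TRXH2* between 1 and 6 dat in 3 of 3 trees (log2 FC 2.26, SE 0.27, adjusted p = 0.000316 in limma), and the call held without any 1 of the 12 libraries. The control libraries of both days had entered the choice of the transcripts. Low control values at 1 dat favoured that choice, and so a rise after that day. How far this moved the result was not tested. Between 1 and 3 dat none of the 3 transcripts was called in control buds, with 0.0378% of all transcripts called, and 1 of the 3, *GRX*, had an unadjusted p under 0.05 (log2 FC -0.37, adjusted p = 0.187 in limma).

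Untreated buds held 1.88, 2.02 and 2.20 FPKM of *TRXH2*; no library of a later day was as low. In control buds it was called higher than at day 0 at all 3 times. The log2 FC at 1 dat was 1.33 (adjusted p = 0.00805 in limma). It was 1.44 at 3 dat (adjusted p = 0.00440 in limma) and 3.59 at 6 dat (adjusted p = 3.45e-06 in limma). The largest of these, 15.3 times the untreated mean, was still below the 21.8 times of treated buds at 1 dat. Every treated tree at 1 dat lay above every control tree at 6 dat (39.2 to 54.4 against 20.5 to 38.0 FPKM). Relative to the median of all transcripts, the control log2 FC was 1.18, 1.24 and 3.42 at 1, 3 and 6 dat.

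**Figure D2:**
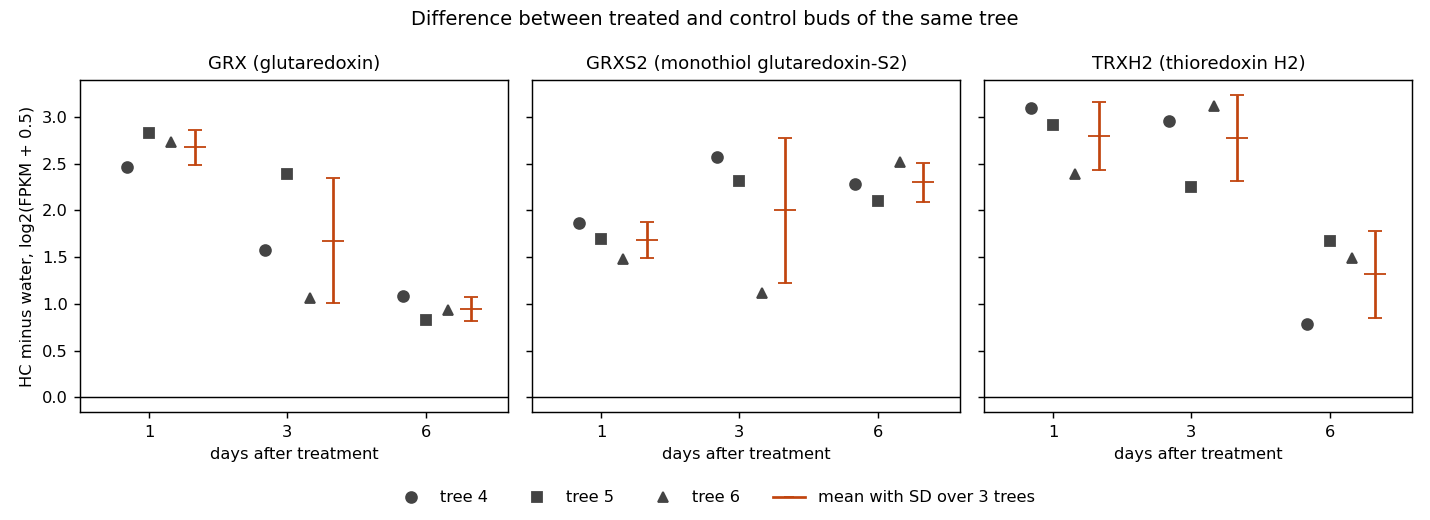
Difference between hydrogen cyanamide-treated (HC) and water-treated buds of the same tree, in log2(FPKM + 0.5), against days after treatment. Dark symbols are the 3 trees, and the coloured mark and bar give their mean and SD. All 27 differences are above 0, the direction for which the transcripts were chosen. GRX declines from a mean of 2.67 at 1 dat to 0.94 at 6 dat, GRXS2 runs from 1.68 to 2.30, and TRXH2 drops between 3 dat (2.77) and 6 dat (1.32).

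Read side by side, the 3 transcripts had different courses. For *GRX* the order of group means was treated 1 dat, treated 3 dat, untreated, treated 6 dat, control 1 dat, control 6 dat and control 3 dat, and the ranges overlapped between treated 3 dat and untreated, between untreated and treated 6 dat, and between control 1 and 6 dat. *GRXS2* was ordered treated 6, 3 and 1 dat, then control 6, 3 and 1 dat, then untreated, and from treated 1 dat downwards each group overlapped with the next. *TRXH2* had the same order, with overlap only between treated 3 and 1 dat and between control 3 and 1 dat.

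The log2 difference between treated and control buds declined from 1 to 6 dat in 3 of 3 trees for *GRX* and for *TRXH2* (by 1.48 ± 0.73 on average, SD, n = 3), and grew in 3 of 3 trees for *GRXS2* (by 0.62 ± 0.36). Over the 21 libraries, which share trees, treatments and days, r of log2(FPKM + 0.5) was 0.90 between *GRXS2* and *TRXH2*, 0.39 between *GRX* and *TRXH2* and 0.32 between *GRX* and *GRXS2*.

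Averaged over the 3 days the log2 FC of treated over control buds was 1.76 (SE 0.13) for *GRX*, 1.99 (SE 0.15) for *GRXS2* and 2.30 (SE 0.15) for *TRXH2*. By the call rule used above, 3 of 3 were higher at 1 dat, 3 of 3 at 3 dat, 1 of 3 (*GRXS2*) at 6 dat and 3 of 3 in the average, where 2.93%, 1.96%, 0.913% and 3.26% of all transcripts tested were called higher and 3.94%, 3.01%, 1.41% and 4.98% were called in either direction. These counts follow from how the transcripts were chosen and are no evidence about them. With the tree as a block, calls in either direction numbered 1253 instead of 1904 at 3 dat and 405 instead of 870 at 6 dat, and the calls of the 3 transcripts did not change. *GRX* left the calls at 3 dat without the treated library of tree 4 or without any of the 3 control libraries, and *GRXS2* without treated tree 4 or 5 or control tree 4. *GRX* joined the calls at 6 dat without the treated library of tree 5 (log2 FC 1.02) and with rescaling (1.10). *TRXH2* joined them at 6 dat with isoforms summed, where fewer features are tested, and with all 21 libraries in 1 fit. Its log2 FC was the same in both (1.32), since it is the only isoform of its assembled gene. *GRXS2* left the calls at 1 dat over trees 5 and 6 alone, and with no filter on low values *GRX* and *GRXS2* left them at 3 dat.

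FPKM is per length, so the transcripts can be set against each other within a library. *GRX* made up 98.3 to 98.7% of their summed FPKM in untreated buds. At 6 dat its share was 59.9 to 69.7% in treated and 71.6 to 79.2% in control buds, *TRXH2* accounted for 17.9 to 30.9% in treated and 15.2 to 24.98% in control buds, and *GRXS2* for 9.22 to 12.3% in treated and 3.42 to 5.66% in control buds.

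Other transcripts of the same assembled units carried little of the signal. *GRX* was 1 of 3 isoforms of its assembled gene and held 96.8 to 99.3% of the gene's FPKM over the libraries of treated and control buds, so that the division of shared reads among isoforms moves it little. Of the minor isoforms, TR23850|c0_g1_i2 averaged 5.10 ± 1.36 FPKM in treated buds at 1 dat, against 1.31 ± 0.278 FPKM in control buds (SD, n = 3 each), and was called higher (log2 FC 1.61, adjusted p = 0.0152 in limma). TR23850|c0_g1_i3 averaged 3.51 ± 1.33 FPKM in treated buds, against 0.792 ± 1.27 FPKM in control buds, and was not called (log2 FC 2.03, adjusted p = 0.127 in limma). *GRXS2* and *TRXH2* were the only isoforms of their assembled genes. TR2435|c1_g1_i1, a separate assembled gene that shares the component number of *TRXH2* and has no description here, was not called, at 26.1 ± 0.763 FPKM in treated buds at 1 dat, against 30.2 ± 1.41 FPKM in control buds (SD, n = 3 each, log2 FC -0.20, adjusted p = 0.215 in limma).

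The lists of other glutaredoxins, thioredoxins and related enzymes were drawn from tables of transcripts that the study chose on these samples and that were held here only in part, so they are not independent evidence of a direction. Of 4 other glutaredoxins, all tested, none was called at 1 dat (2 had an unadjusted p under 0.05 in limma), 1 was called higher at 3 dat and 1 at 6 dat. Of all transcripts tested, 2.93%, 1.96% and 0.913% were called higher at 1, 3 and 6 dat. The median log2 FC was 0.62, 1.37 and 0.93 at 1, 3 and 6 dat, where that of all transcripts was -0.10, -0.04 and -0.07.

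The monothiol glutaredoxin-S10 (TR22412|c0_g1_i1) was the one called at 6 dat. It held 6.47, 4.14 and 4.96 FPKM in treated buds of trees 4, 5 and 6 at that time, against 1.296, 0.633 and 0.947 FPKM in control buds (log2 FC 1.97, adjusted p = 0.0311 in limma). Glutaredoxin-C4 (TR12989|c0_g1_i4), a dithiol form, was the one called at 3 dat, with 1.76 ± 0.134 FPKM in treated buds, against 0.102 ± 0.0902 FPKM in control buds (SD, n = 3 each, log2 FC 1.92, adjusted p = 0.0268 in limma). Both calls were lost with any 1 of the 6 libraries left out (highest adjusted p 0.103 for S10 and 0.0941 for C4) and once the tree was a block (adjusted p = 0.0673 and 0.0697). A further glutaredoxin family member, TR20677|c0_g2_i1, stood at 27.6, 29.3 and 34.2 FPKM in treated buds at 1 dat, against 20.7, 20.7 and 22.5 FPKM in control buds. Its log2 FC of 0.50 (adjusted p = 0.0354 in limma) passed the threshold on p but was below the fold threshold.

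Of 11 other thioredoxins and thioredoxin-like transcripts 5, 7 and 9 were abundant enough to test at 1, 3 and 6 dat. None was called at 1 dat (1 with an unadjusted p under 0.05 in limma) or at 6 dat (4), and 1 was called higher at 3 dat. Over all transcripts tested, the share called higher was 2.93%, 1.96% and 0.913% at 1, 3 and 6 dat. Their median log2 FC was 0.99, 1.35 and 1.25 at 1, 3 and 6 dat. The called one encodes a thioredoxin-like protein CXXS1 (TR39070|c0_g1_i3), whose active site lacks a cysteine. It was at 3.06, 1.48 and 5.49 FPKM in treated buds of trees 4, 5 and 6, against 0.0567, 0.301 and 0.273 FPKM in control buds (log2 FC 2.31, adjusted p = 0.0390 in limma), a call lost once the tree was a block (adjusted p = 0.0728) and in 5 of 6 leave-one-out fits, all but that without treated tree 5. At 6 dat it stood at 11.5 to 11.7 FPKM in treated and 0.970 to 4.07 FPKM in control buds, with an adjusted p of 0.0705.

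A cytosolic glutathione reductase, which restores the glutathione that glutaredoxins use, was higher in treated buds at 1 dat. Of 12 transcripts of glutathione synthesis and reduction 10 were tested at 1 dat, and all 10 had a positive log2 FC (median 1.27). They belong to the assembled components TR26328 and TR40862, among whose isoforms reads may be divided inexactly, so their signs are not independent. Called were 2, the isoforms TR40862|c1_g2_i3 and TR40862|c1_g2_i4 of the cytosolic reductase, where 2.93% of all transcripts were called higher. The call of TR40862|c1_g2_i4 was lost without any 1 of the libraries except control tree 4. TR40862|c1_g2_i3 was at 165, 156 and 163 FPKM in treated buds of trees 4, 5 and 6, against 34.6, 27.3 and 30.3 FPKM in control buds. No treated tree came near a control tree, and the log2 FC was 2.38 (SE 0.09, adjusted p = 2.01e-05 in limma). At 3 dat 1 of 8 was called, the same isoform (log2 FC 1.59, adjusted p = 0.0271), a call lost without treated tree 4 or without any 1 control tree. None of 7 was called at 6 dat, where 4 had an unadjusted p under 0.05 in limma. Of all transcripts, 1.96% were called higher at 3 dat and 0.913% at 6 dat. The median log2 FC of the list was 0.69 at 3 dat and 0.80 at 6 dat.

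Glutamate-cysteine ligase, the first enzyme of glutathione synthesis, had its most abundant listed isoform (TR26328|c3_g2_i9) at 125 ± 12.1 FPKM in treated buds at 1 dat, against 65.5 ± 3.96 FPKM in control buds (SD, n = 3 each). Its log2 FC of 0.92 (adjusted p = 0.000973 in limma) was just under the fold threshold and passed it with rescaling (1.06). With isoforms summed, the log2 FC of its assembled gene passed it as well (1.095).

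Of 5 listed transcripts for peroxide removal 4 were called higher at 1 dat, 3 of them isoforms of 1 glutathione peroxidase gene, and none at 3 or 6 dat, where 2 each had an unadjusted p under 0.05. The shares of all transcripts called higher were 2.93%, 1.96% and 0.913% at 1, 3 and 6 dat, and no difference between days was tested for this list. A glutathione peroxidase (TR9963|c0_g1_i4), more abundant still than *GRX*, averaged 1192 ± 147 FPKM in treated buds at 1 dat, against 298 ± 39.4 FPKM in control buds (SD, n = 3 each, log2 FC 2.00, adjusted p = 0.000102 in limma). It shares an assembled gene with 3 others of the 5, so that their reads may be divided inexactly. A chloroplast ascorbate peroxidase (TR24669|c0_g1_i3) averaged 99.6 ± 8.74 FPKM in treated buds at 1 dat, against 31.3 ± 2.80 FPKM in control buds (SD, n = 3 each, log2 FC 1.65, adjusted p = 0.000124 in limma). Summed with the other isoforms of its assembled gene it was below the fold threshold (log2 FC 0.96). The median log2 FC of the 5 was 2.00, 0.73 and 0.44 at 1, 3 and 6 dat. Counts of this size change with 1 library: TR9963|c0_g1_i2 was not called at 1 dat without any 1 treated tree or without control tree 4, and TR9963|c0_g1_i6 without any 1 treated tree.

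**Figure D3:**
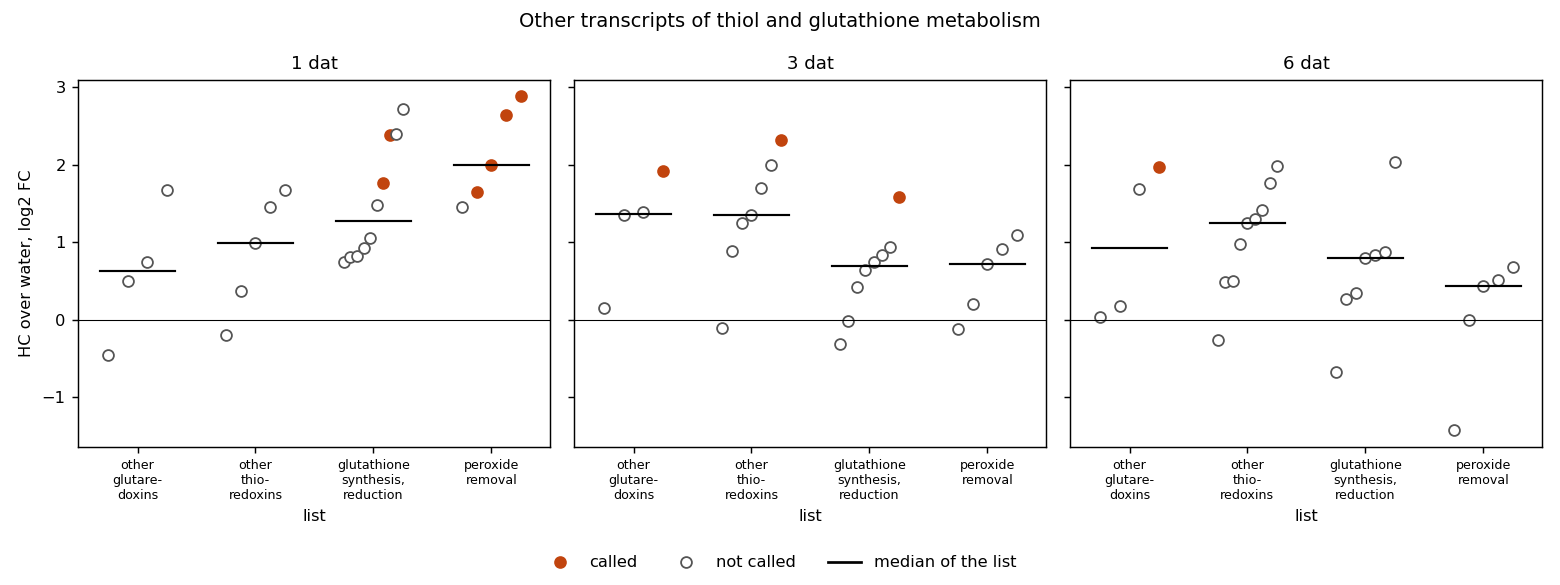
Log2 FC of treated (HC) over control (water) buds for the listed transcripts that could be tested at 1, 3 and 6 dat. Each circle is a transcript, filled where it was called, and lines are list medians. Peroxide removal had 4 of 5 called at 1 dat and none later, where 2.93%, 1.96% and 0.913% of all transcripts were called higher at 1, 3 and 6 dat.

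In control buds isoforms of the glutathione peroxidase and glutathione reductase were called lower than at day 0. Of 5 peroxide-removing transcripts 2, 2 and 3 were called lower at 1, 3 and 6 dat, all isoforms of TR9963, where 2.08%, 2.02% and 4.56% of all transcripts were called lower. The glutathione peroxidase TR9963|c0_g1_i4 averaged 298, 177 and 179 FPKM in control buds at 1, 3 and 6 dat, against 712 FPKM in untreated buds, and its calls held at all 3 times under every alternative run. Of 9 tested transcripts of glutathione synthesis and reduction 3, 2 and 1 were called lower, and each of these calls was lost in at least 1 alternative. The called ones were isoforms of TR40862 and, at 1 dat, 1 isoform of glutamate-cysteine ligase. The other 2 lists did not all fall. Of 5 tested thioredoxins and thioredoxin-like transcripts 1 was called lower at each of the 3 times, and 2 were called higher at 6 dat, where 11.9% of all transcripts were called higher. Of 3 tested other glutaredoxins 1 was called lower at 3 dat and 1 at 6 dat, and none higher. These calls are given without the alternatives.

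The spread of *GRX* among treated trees at 3 dat was shared by several of these transcripts, a pattern noticed after the values were seen. Tree 5 was highest and tree 6 lowest for the glutathione reductase (90.5, 147 and 61.5 FPKM in trees 4, 5 and 6), the glutathione peroxidase TR9963|c0_g1_i4 (355, 643 and 232 FPKM) and the ascorbate peroxidase (50.9, 63.0 and 43.3 FPKM). *GRXS2* had this order too (20.03, 21.7 and 14.6 FPKM), whereas *TRXH2* was highest in tree 6. The thioredoxin-like protein CXXS1 called at 3 dat ran the other way, lowest in tree 5 and highest in tree 6. These examples were picked from the lists, and the listed transcripts that share the order were not counted.

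Among 2691 described transcripts of other genes with a mean of at least 1 FPKM, those with the courses most like *GRX* over the 21 libraries included that same glutathione reductase, with r = 0.971. The others of the closest 5 were a transmembrane protein homolog (TR24469|c0_g1_i8, r = 0.976), a haloacid dehalogenase-like hydrolase (TR38573|c3_g3_i1, r = 0.974), an isoflavone 2'-hydroxylase-like cytochrome P450 (TR38500|c5_g1_i1, r = 0.970) and the photosystem II protein psbY (TR15638|c0_g1_i1, r = 0.965). In all 5 the mean was highest in treated buds at 1 dat, for example 97.0 FPKM in treated and 4.23 FPKM in control buds for TR38500|c5_g1_i1. Described transcripts are those in the study's tables, which list transcripts that differed between treated and control buds of these samples. The study also reports *GRX* itself as co-expressed with cyanoalanine synthase, and those tables include the list of such transcripts. A high r to *GRX* and a high mean in treated buds were thus favoured by the pool. How far was not tested. These r describe libraries that share trees, treatments and days, and carry no test.

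**Figure D4:**
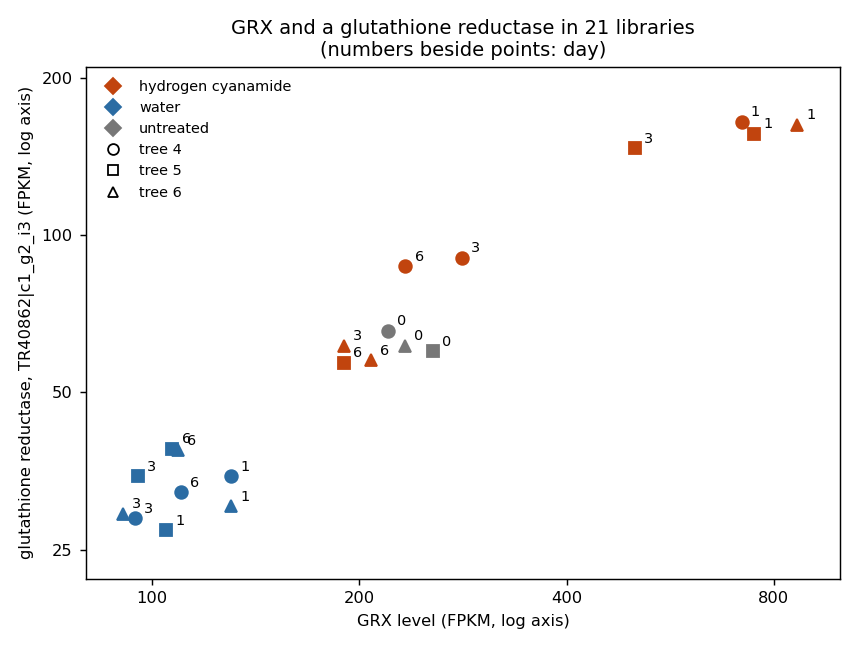
Level of a cytosolic glutathione reductase transcript (vertical, FPKM, log axis) against that of GRX (horizontal, FPKM, log axis) in 21 libraries. Colours are treatments, symbols trees and numbers days. Treated buds at 1 dat sit at the upper right with 718 to 866 FPKM of GRX, control buds at the lower left, and treated tree 5 at 3 dat lies nearest to them among the later treated libraries.

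Among the described transcripts *GRXS2* and *TRXH2* had other neighbours, all with the highest mean in treated buds at 6 dat, as in these 2 members. The pool was the same, so a high mean in treated buds was favoured here as well. Over all transcripts compared, 176 had r above 0.9 to *GRXS2* and 189 to *TRXH2*, of which only 76 and 84 were described, so closer ones may be missing here. Closest to *GRXS2* were an uncharacterized protein (TR24622|c0_g1_i1, r = 0.976), the transcription factors MYB34 (TR10621|c1_g2_i2, r = 0.962) and bHLH149 (TR35345|c0_g2_i1, r = 0.958), a salicylic acid-binding protein 2 (TR32987|c4_g2_i1, r = 0.957) and a serine carboxypeptidase-like protein 45 (TR24833|c0_g1_i1, r = 0.955). MYB34, in *Arabidopsis* a regulator of tryptophan-derived glucosinolate synthesis, averaged 21.1 FPKM in treated and 1.39 FPKM in control buds at 6 dat. Closest to *TRXH2* were a HAT22-like homeobox-leucine zipper protein (TR7645|c0_g1_i3, r = 0.975), an uncharacterized protein (TR29317|c0_g1_i1, r = 0.974), a DUF3511 domain protein (TR12087|c2_g1_i1, r = 0.968), the precursor of a phytosulfokine growth peptide (TR392|c0_g1_i1, r = 0.968) and a probable sarcosine oxidase (TR12154|c0_g2_i2, r = 0.967). The phytosulfokine transcript averaged 58.9 FPKM in treated and 39.5 FPKM in control buds at 6 dat.

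Summed levels of green tissue and flower organ markers also differed between treated and control buds at some of these times, and their part in the results was not tested. The summed level of 2 green tissue markers, psbY and a chlorophyll a-b binding protein, was 42.7 to 47.6 FPKM in treated and 6.49 to 9.89 FPKM in control buds at 1 dat, 15.4 to 29.4 and 5.11 to 7.27 FPKM at 3 dat, and 8.33 to 15.0 and 7.14 to 9.90 FPKM at 6 dat. At 1 dat nearly all of it was psbY, the neighbour of *GRX*, while the chlorophyll a-b binding protein (TR33074|c5_g1_i2) was at 0.0508 to 0.701 FPKM in treated and 0.0540 to 1.03 FPKM in control buds. At 6 dat that protein's transcript was at no more than 0.553 FPKM in treated buds and at 1.73 to 2.75 FPKM in control buds, and it was not called (log2 FC -2.12, adjusted p = 0.0633 in limma). Averaged over the days it was called lower in treated buds, opposite to psbY (log2 FC -1.05, adjusted p = 0.00545 in limma). The call was lost with rescaling (-0.92), a pseudocount of 1 FPKM (-0.72) or only trees 5 and 6 at 1 dat (-0.81). Its assembled gene, with isoforms summed, was not called (-0.33). The call was also lost without treated tree 4 of 1 dat, treated tree 5 or 6 of 6 dat or control tree 4 of 1 dat. The summed level of 7 flower organ markers was 2.18 to 4.88 FPKM in treated and 1.95 to 3.55 FPKM in control buds at 1 dat, 5.00 to 13.1 and 3.10 to 3.27 FPKM at 3 dat, and 16.9 to 99.2 and 5.66 to 23.7 FPKM at 6 dat. At 3 dat 3 of the 5 that could be tested were called higher in treated buds, where 1.96% of all transcripts were called higher. All 3 were isoforms of the anther factor DYSFUNCTIONAL TAPETUM 1. Each call was lost in at least 4 of the leave-one-out fits and with a block for the tree (adjusted p = 0.0682, 0.0720 and 0.0988 in limma). The flower organ sums overlapped between treated and control buds at 1 and 6 dat, and at 6 dat 4 of the 6 that could be tested had a negative log2 FC, none of them called (1 of the 6 had an unadjusted p under 0.05). The largest change of the 6 was that of TR15781|c0_g1_i1, a short-chain dehydrogenase reductase 2a (log2 FC 3.95, adjusted p = 0.189 in limma), which was not called. Its share of the sum at 6 dat was not examined.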

How the data were processed

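Stranded mRNA libraries of 21 flower bud samples were used. The authors trimmed reads with Trimmomatic 0.33, assembled them with Trinity, mapped them with STAR (version not given in the sources used here) and estimated FPKM with eXpress 1.5.1, which divides shared reads between isoforms. The deposited table holds FPKM and no counts, so the reads behind a value are unknown and no interval rests on them. Groups were taken from the sample labels.

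With limma 3.58.1, every transcript averaging 0.5 FPKM or more over the libraries of a comparison was tested (R 4.3.3, trend on the mean) on log2(FPKM + 0.5), a scale that understates changes of low transcripts. Treated and control buds were fitted per day, or over 18 libraries for the average, and controls and untreated buds in 12 libraries. The study itself used EBSeq and 2 unnamed trees at 1 dat. Descriptions were computed with Python 3.11.15, pandas 2.3.3, numpy 2.4.6 and scipy 1.17.1, and plots with matplotlib 3.10.9. The models were also run on simulated data with independent noise and no tree effect, which cannot show how stable the calls are here.

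The members and 6 lists (41 entries) were chosen with earlier results of these data known. Named were the 3 members, transcripts sharing their component number, per list and day at most 3 transcripts with at least 1 FPKM in the higher group and the largest absolute log2 FC, and the 5 described transcripts closest to each member. TR26328|c3_g2_i9, TR40862|c1_g2_i4 and the levels of TR24669|c0_g1_i3 and TR33074|c5_g1_i2 at 1 dat fall outside that rule and were named after their values were seen.

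Per the labels, each treatment group had branches of the trees 4, 5 and 6, and the sample titles carry these numbers, so the tree pairs the libraries. Deviations from group means correlated at -0.0147 to 0.0587 between treated and control libraries of a tree and day, and at -0.120 to 0.126 between libraries of different trees. The tree as a block, other pseudocounts (0.1 and 1 FPKM), no filter, a stricter filter at 1 FPKM, summing the isoforms of an assembled gene, rescaling by median ratios, all 21 libraries in 1 fit, leaving out each library and, at 1 dat, trees 5 and 6 alone were tried as alternatives.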

Additional observations from a re-analysis of the deposited data

Results flagged for a closer look

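*GRX* was the one transcript of the 3 whose treated and control buds moved in opposite directions from day 0 in every tree. At 1 dat the log2 difference from untreated buds was 1.71 on average in treated buds (1.55 to 1.89 over 3 trees) and -0.96 in control buds (-1.28 to -0.75 over 3 trees). The difference between these changes was not tested, since the contrast of treated with control buds had chosen the transcript.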

How the results depend on the processing

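The log2 FC of treated over control buds kept its direction for all 3 transcripts at each day and in the average under every alternative run. The transcripts were chosen for that direction in the same libraries, so its persistence is no evidence about them. The log2 FC moved by more than the SD between trees once, for *GRX* at 6 dat with rescaling (1.10). With controls against day 0, rescaling took *GRX* at 1 dat past the fold threshold (-1.17), and *GRXS2* at 3 dat was no longer called with no filter (1.17, adjusted p = 0.0618), with rescaling (0.91) or with the tree as a replicate block (1.17, adjusted p = 0.0535). The block changed no other call of the 3 transcripts. Leaving out 1 library gave log2 FC of -1.01 to -0.85 for *GRX* at 1 dat against day 0, 0.89 to 1.3997 for *GRXS2* at 3 dat against day 0, 1.18 to 1.49 for *GRXS2* from 1 to 6 dat in controls, and -0.13 to 0.25 for *TRXH2* from 1 to 3 dat in controls, which turned negative without control tree 5 of either day.

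Counts over all transcripts were less stable. At 1 dat 2430 transcripts were called between treated and control buds, and 1257 over trees 5 and 6 alone. At 3 dat 1904 were called, 343 with no filter, 1253 with the block, 3214 with all 21 libraries in 1 fit and 343 to 1597 with 1 library left out. At 6 dat 870 were called, 225 with no filter, 405 with the block, 2555 with all libraries and 167 to 696 with 1 left out. The average gave 3138 calls, 4483 with a pseudocount of 0.1 FPKM, 2045 with one of 1 FPKM and 1653 with isoforms summed, where fewer features are tested. With isoforms summed, controls against day 0 gave 2514, 3479 and 6050 calls at 1, 3 and 6 dat, instead of 4376, 5369 and 10425. Controls from 1 to 3 dat gave 24 calls, 44 with no filter, 13 rescaled, 93 with isoforms summed, 3 with the block, 76 with all libraries and 4 to 42 with 1 left out. Rescaling took the share of higher calls between treated and control buds to 77.7%, from 64.8%, at 6 dat and to 76.8%, from 65.3%, in the average. With isoforms summed, the value is that of the assembled gene. At 6 dat the log2 FC of the gene was positive for TR9963|c0_g1_i6 (0.64) and for the chlorophyll a-b binding protein TR33074|c5_g1_i2 (0.043), whereas that of each isoform was negative. The log2 FC of the floral homeotic TR12479|c2_g3_i4 at 1 dat ran from -0.58 without treated tree 4 to 0.017 without treated tree 5. None of these was called. The cause of these changes was not tested otherwise.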
